A study of Mus musculus with 12 samples.

Results

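Tmem176a and Tmem176b are neighbouring mouse genes that arose by duplication. They were selected on their measured levels in untreated cells, where both differed between the genotypes, and they are 2 of the 38739 gene symbols in the deposited expression table. The data were 12 RNA-seq libraries of bone marrow-derived macrophages (BMDMs), 3 for each of 4 groups. The groups were macrophages of wild-type (WT) mice and of mice with a systemic knockout of cGAS (cGAS-/-), each left in medium (UT) or stimulated with lipopolysaccharide (LPS), a cell wall component of Gram-negative bacteria that activates macrophages through TLR4. cGAS is the sensor of cytosolic DNA that signals through STING. All mice were on the C57BL/6J background, and the methods of the study give male animals 8 weeks of age. The sample labels give 100 ng/mL of Escherichia coli LPS for 1 h, whereas the methods of the study give a higher dose and a longer exposure, so the dose and time behind the LPS samples are uncertain. The labels also name neutrophils in the step of RNA extraction. A legend of the study describes its 3 samples per group as technical replicates. The spread between them may therefore be technical, and p-values measure only that spread.

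The proteins of this gene pair, TMEM176A and TMEM176B, are small membrane proteins related to the MS4A family. They form cation channels in Golgi, endosomal and lysosomal membranes. They are known from immature dendritic cells, where they bear on antigen presentation, from monocytes and macrophages, and from some lymphoid cells. TMEM176B is also known to restrain the NLRP3 inflammasome, the protein complex that activates caspase-1 and matures IL-1β.

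In the GENCODE annotation of GRCm39, Tmem176a (ENSMUSG00000023367) lies on the forward strand of chromosome 6, from 48817813 to 48824005, and Tmem176b (ENSMUSG00000029810) on the reverse strand, from 48809099 to 48819233. The genes point away from each other, and their 5′ ends overlap. Tmem176a has 13 annotated transcripts, 11 of them coding, and 6 of the 13 start at 48818411. Tmem176b has 45 transcripts, 43 of them coding, and 17 of the 45 start at 48818308. Only 102 bases separate these 2 commonest starts. The interval is shown because both genes have their commonest annotated start beside it and because their levels moved together across the groups. It also lies within the span of 2 Tmem176a transcripts and 6 Tmem176b transcripts that start beyond it. It is chr6:48818309-48818410 of GRCm39, forward strand, with 63.7% G or C, and capitals mark the motif matches described next.

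Tmem176b-Tmem176a interval: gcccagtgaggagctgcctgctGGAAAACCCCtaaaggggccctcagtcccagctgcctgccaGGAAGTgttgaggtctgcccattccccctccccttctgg

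Counted from the Tmem176b side, bases 23 to 32 match a loose form of the NF-κB site, GGG and CC with any 5 bases between them, on the reverse strand. Bases 64 to 69 match GGAAGT, a core that ETS factors bind. Both strands were searched, and the matches do not overlap. Such matches are common. In the 102 bases before the start of 32851 RefSeq promoters (GRCm38.p6), the NF-κB form occurred in 27.6% and the ETS core in 10.2%. These letters held no match for AP-1 (TGACTCA or TGAGTCA), CRE (TGACGTCA), E-box (CACGTG), PU.1 (GAGGAAG), IRF (GAAA repeated after any 2 bases), STAT (TTCNNNGAA), GC box (GGGCGG), the TATA element (TATAAA), the letters CCAAT, C/EBP (TTGCNNAA) and RUNX (TGTGGT). The shares of these motifs among the same promoters ran from 1.01% for IRF to 24.9% for the GC box. RefSeq lists 2 promoters for Tmem176a and 3 for Tmem176b, and the whole interval was found in 1 promoter of each gene.

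Levels are given as TPM, a unit of transcript abundance corrected for transcript length and scaled within a library, here as the mean over the transcripts of a gene symbol. No source names the unit of the table, which was read from its values, and the depth of each library is unknown. The transcripts of the pair share 1084 exonic bases on opposite strands. Of the sequences of 31 bases that a read can be matched by, 20.1% of those of Tmem176a and 14.1% of those of Tmem176b occur in the partner on the opposite strand, and 0 on the same strand. The library kit keeps strand, but the strand setting of the quantification is not given in the sources used here. Reads from the shared stretch could therefore be assigned to either gene, and the level of each is uncertain to that extent. Sequences shared with any other gene made up 0.0197% for Tmem176a and 0 for Tmem176b.

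Facts of the libraries bear on what follows. Column totals ran from 447189 to 503156 TPM in 11 libraries and reached 709802 in WT LPS replicate 3, where the ferritin pseudogene Fth-ps3 took 31.7% of the total against 6.24% to 17.7% in the others. Differences of the pair that use the WT LPS group, and most counts over gene lists, are therefore given with and without that library. Ranks and shares of the pair among all genes are given with it only. Cgas, the targeted gene, was at 1.19 to 3.25 TPM in the 6 WT libraries and at 0.0703 to 0.291 TPM in the 6 cGAS-/- libraries. The summed level of 12 macrophage markers was 19790 to 36770 TPM, most of it Lyz2, the gene of lysozyme, while Mrc1 (CD206) was as low as 0.857 TPM in cGAS-/- LPS. With LPS, 2 of these markers rose and 5 fell in WT cells, and 4 rose and 6 fell in cGAS-/- cells (limma, adjusted p), beside 4.31% and 23.3%, and 4.76% and 9.06%, of all genes tested. When WT LPS replicate 3 was dropped, 3 rose and 6 fell in WT cells, and 4 rose and 7 fell in cGAS-/- cells, beside 34.7% and 30.8% of all genes tested that passed in either direction. With totals made equal, 3 rose and 3 fell in cGAS-/- cells, beside 13.1% of all genes tested.

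In WT UT macrophages, Tmem176a was at 18.3, 16.6 and 16.7 TPM, and Tmem176b at 24.5, 21.8 and 23.4 TPM. In cGAS-/- UT macrophages, Tmem176a was at 2.67, 2.34 and 2.53 TPM, and Tmem176b at 4.20, 3.97 and 3.45 TPM. Both genes were thus several times lower in every cGAS-/- UT library than in any WT UT library.

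With LPS, Tmem176a was at 5.59, 4.08 and 0.213 TPM in WT macrophages, and Tmem176b at 6.65, 4.64 and 0.741 TPM. In cGAS-/- macrophages with LPS, Tmem176a was at 9.43, 10.3 and 7.31 TPM, and Tmem176b at 10.97, 10.8 and 9.98 TPM. The order of the genotypes was thus turned round, with every cGAS-/- LPS library above every WT LPS library for both genes, and WT LPS replicate 3 far below its group.

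**Figure D1:**
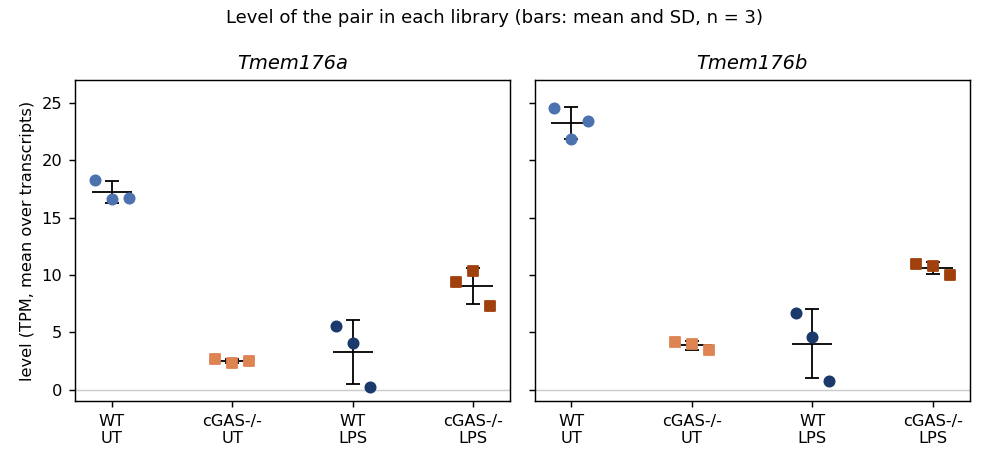
Level of Tmem176a (left) and Tmem176b (right) in TPM, averaged over transcripts, in each of the 12 libraries, with circles for WT and squares for cGAS-/-, and bars for the mean and SD of 3 libraries. For both genes WT UT is highest and cGAS-/- LPS second, and the third WT LPS library lies near 0.

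The mean of Tmem176a was 17.2 ± 0.936 TPM in WT UT, 9.02 ± 1.55 in cGAS-/- LPS, 3.29 ± 2.77 in WT LPS and 2.51 ± 0.164 in cGAS-/- UT (SD, n = 3 each). The same order held for Tmem176b, at 23.2 ± 1.36, 10.6 ± 0.534, 4.01 ± 3.01 and 3.87 ± 0.388 TPM (SD, n = 3 each). In this order, the neighbours WT LPS and cGAS-/- UT overlapped for both genes, through WT LPS replicate 3. Leaving out that library, the WT LPS means were 4.84 TPM for Tmem176a and 5.65 TPM for Tmem176b, and both remaining WT LPS libraries lay above all 3 cGAS-/- UT libraries. Among the 11887 genes that passed the filter on low values, which both genes did, the mean of Tmem176a was above that of 83.5% of genes in WT UT, 76.4% in cGAS-/- LPS, 59.5% in WT LPS and 46.1% in cGAS-/- UT. For Tmem176b these shares were 87.0%, 78.8%, 63.8% and 56.5%. Both genes were above 1 TPM in every library but WT LPS replicate 3.

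The comparison of genotypes in UT macrophages is the one that chose the pair, so its values are a description and carry no test. Tmem176a was 6.84-fold and Tmem176b 6.0-fold lower in cGAS-/- UT than in WT UT. On the log2(TPM + 1) scale, which understates changes of low genes, the differences were -2.37 and -2.32, beside a median of -0.04 over all 11887 genes. They were the 37th and 43rd lowest differences. For background, 1.58% of all genes tested were lower in cGAS-/- UT at an adjusted p under 0.05 (limma, Benjamini-Hochberg), 0.337% also passed a log2 fold change of 2, and 18.4% were lower with no overlap between the samples. Nothing is read from these shares about the pair.

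The comparison of genotypes with LPS takes its difference from samples that did not choose the pair. It asks whether the genotypes also differ in stimulated cells. The spread behind its SE and adjusted p was estimated over all 12 libraries, the UT libraries included. These 2 values are thus not fully independent of the choice of the pair. The levels of the pair were higher in all 3 cGAS-/- LPS libraries than in all 3 WT LPS libraries, by 2.74-fold for Tmem176a and 2.64-fold for Tmem176b. On the log2(TPM + 1) scale the difference was 1.53 for Tmem176a (SE 0.49, n = 3 per group, limma adjusted p = 0.147) and 1.46 for Tmem176b (SE 0.43, n = 3 per group, limma adjusted p = 0.123). Neither passed the adjusted p of 0.05, and the median difference of all genes was 0.20. In this comparison 2.36% of all genes tested passed the adjusted p, and 12.6% were higher in cGAS-/- LPS with no overlap between the samples.

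The call changed when WT LPS libraries were left out. Without WT LPS replicate 3, the difference fell to 0.78 for Tmem176a (SE 0.16, limma adjusted p = 0.0163) and to 0.82 for Tmem176b (SE 0.14, limma adjusted p = 0.00758), and the levels were 1.87-fold and 1.88-fold higher in cGAS-/- LPS. Both genes were then past the adjusted p with a smaller difference, and so were 8.28% of all genes tested. Without WT LPS replicate 2 the differences were 1.81 and 1.67, with limma adjusted p of 0.0360 and 0.0300, and 27.9% of all genes tested passed. Without WT LPS replicate 1 they were 2.0 for Tmem176a, with an adjusted p of 0.0560, and 1.89 for Tmem176b, with an adjusted p of 0.0362, and 2.97% of all genes tested passed. When each library was scaled by its median ratio to the other libraries, the differences were 1.34 and 1.13 with adjusted p of 0.149 and 0.104. Under that scaling the level of Tmem176a in WT LPS replicate 1, at 7.39, lay just above cGAS-/- LPS replicate 3, at 7.30, so that the groups overlapped for Tmem176a and stayed apart for Tmem176b.

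The response to LPS went in opposite directions in the genotypes. These values include the UT samples that chose the pair, and so they too are a description. In WT macrophages, Tmem176a was 5.22-fold and Tmem176b 5.79-fold lower with LPS than in UT cells, with log2 differences of -2.40 and -2.52 beside a median of -0.46 over all genes. The levels were 3.56-fold and 4.12-fold lower without WT LPS replicate 3. In cGAS-/- macrophages, Tmem176a was 3.59-fold and Tmem176b 2.73-fold higher with LPS, with log2 differences of 1.5 and 1.25 beside a median of -0.20. The LPS libraries lay outside the range of the UT libraries of their genotype for both genes.

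The 2 log2 responses differed between the genotypes by 3.90 for Tmem176a and 3.77 for Tmem176b, the 16th and 18th highest of all genes, where the median was 0.27. Without WT LPS replicate 3 these differences were 3.15 and 3.13, beside a median of 0.08. For background, 32.9% of all genes tested were lower with LPS in WT cells with no overlap between the samples, and 15.5% were higher with LPS in cGAS-/- cells. A fall in WT with a rise in cGAS-/-, without overlap in either, was found in 99 genes, 0.833% of those tested. As the UT samples that chose the pair belong to this pattern, it is no independent evidence.

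**Figure D2:**
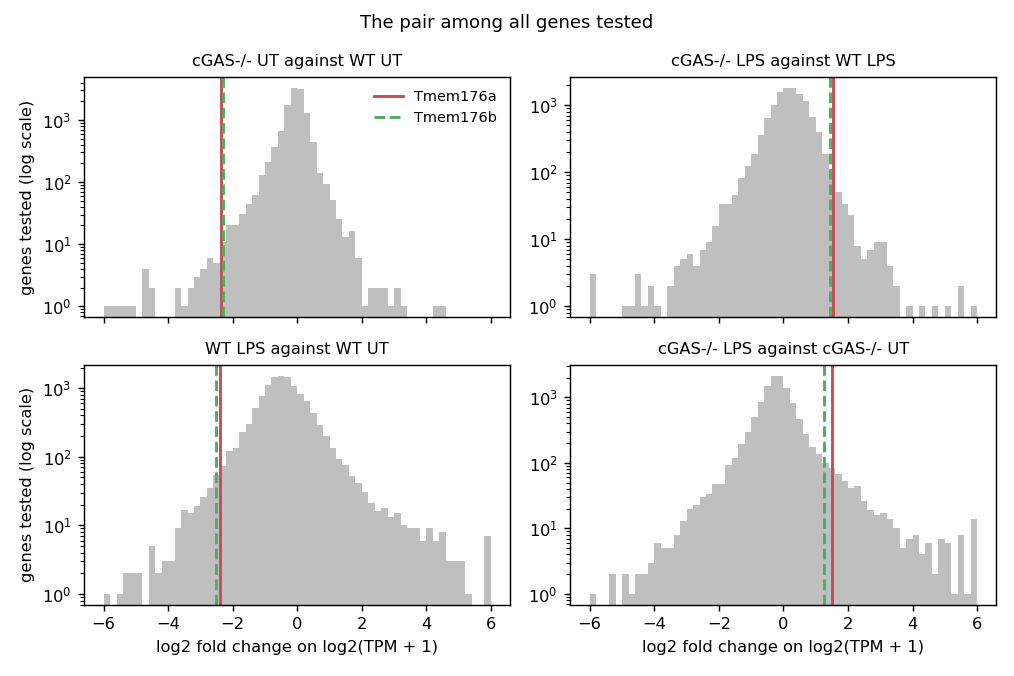
Number of genes (log scale) by log2 fold change on the log2(TPM + 1) scale in 4 comparisons of 11887 genes, with values beyond 6 placed at 6, a solid line for Tmem176a and a dashed line for Tmem176b. The pair lies in the lower tail for cGAS-/- UT against WT UT (-2.37 and -2.32) and WT LPS against WT UT, and on the higher side in both other comparisons.

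Tmem176a and Tmem176b had the same order of group means. The ratio of the Tmem176a to the Tmem176b value was 0.715 to 0.762 in WT UT, 0.590 to 0.734 in cGAS-/- UT and 0.732 to 0.953 in cGAS-/- LPS. In WT LPS it ran from 0.288 to 0.881, and the lowest was that of replicate 3, where both genes were below 1 TPM. These are ratios of averages over transcripts and not of gene totals. The values of Tmem176a came to 7 decimals (within 2.4e-11) when multiplied by 7 in 12 of 12 libraries, as an average over 7 transcripts gives. Those of Tmem176b did so (within at most 2.2e-11) in 10 of 12 when multiplied by 6 and in 8 of 12 when multiplied by 3. Multiples of 7 and of 6 gave the same counts, so 7 and 6 are the smallest multipliers that reached them. The ratio can be compared between groups where the divisor is the same, but it does not say which gene makes more RNA.

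On the log2(TPM + 1) scale the ratio was -0.22 ± 0.17 in cGAS-/- LPS and -0.30 ± 0.20 in WT LPS (SD, n = 3 each). The difference of 0.07 was smaller than this spread (exact permutation test, two-sided, p = 0.6, where 0.1 is the smallest p that 3 against 3 samples can give). Across the 12 libraries the log2 values of the pair had a Pearson r of 0.99, which mostly reflects the groups. Deviations from the group means had an r of 0.985 over 12 libraries and 0.731 over the 11 without WT LPS replicate 3. These points share library, depth and the overlapping reads described above, and r is given as a description.

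**Figure D3:**
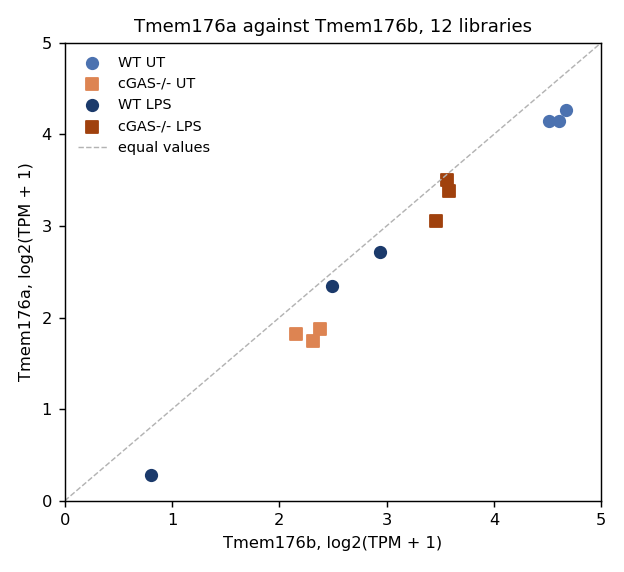
Level of Tmem176a against Tmem176b, both as log2(TPM + 1), in 12 libraries, with circles for WT and squares for cGAS-/-, light for UT and dark for LPS, and a dashed line at equal values. The libraries follow a common course below the dashed line, from WT LPS replicate 3 at the lower left to WT UT at the upper right.

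The tested genes around the pair did not pass between the genotypes. Of 72 annotated genes with a start within 500 kb, 54 were in the table and 16 passed the filter. At an adjusted p of 0.05 (limma), 0 of these 16 differed between the genotypes in UT cells and 0 with LPS, beside 1.83% and 2.36% of all genes tested. Their log2 differences in UT cells ran from -0.31 for the long noncoding RNA 4833403J16Rik to 0.19 for the pseudogene Gm7887, with a median of -0.05. With LPS their median was 0.33. The counts were 0 and 1 without WT LPS replicate 3, beside 5.33% and 8.28% of all genes tested, and the 1 was Gpnmb, with a difference of -1.04 in LPS cells (limma adjusted p = 0.0447). The Gimap genes, which encode GTPases of lymphocytes and lie near the pair, were at low levels. The 8 of them in the table and Gimap1os, a transcript of the opposite strand, did not pass the filter, and their highest value in any library was 0.524 TPM, for Gimap9.

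In the LPS response of WT cells, 6 of the 16 neighbours fell, beside 23.3% of all genes tested. They were Gpnmb (log2 difference -2.40), Lrrc61 (-1.21), Tra2a (-1.09), Repin1 (-0.96), Igf2bp3 (-0.73) and Zfp775 (-0.65). Of these 6, Tra2a and Zfp775 did not pass with median-ratio scaling, Igf2bp3 and Zfp775 with quantile scaling, and Zfp775 without WT LPS replicate 3. In cGAS-/- cells Gpnmb, a glycoprotein of lysosomes in macrophages, was the only neighbour past the adjusted p, and it fell by 2.97, beside 9.06% of all genes tested. When WT LPS replicate 3 was left out, 6 of the 16 fell in WT and 6 in cGAS-/- cells, beside 34.7% and 30.8% of all genes tested that passed in either direction. In no setting computed for the 16, that one and 3 other scalings included, did a neighbour pass as higher with LPS in cGAS-/- cells.

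**Figure D4:**
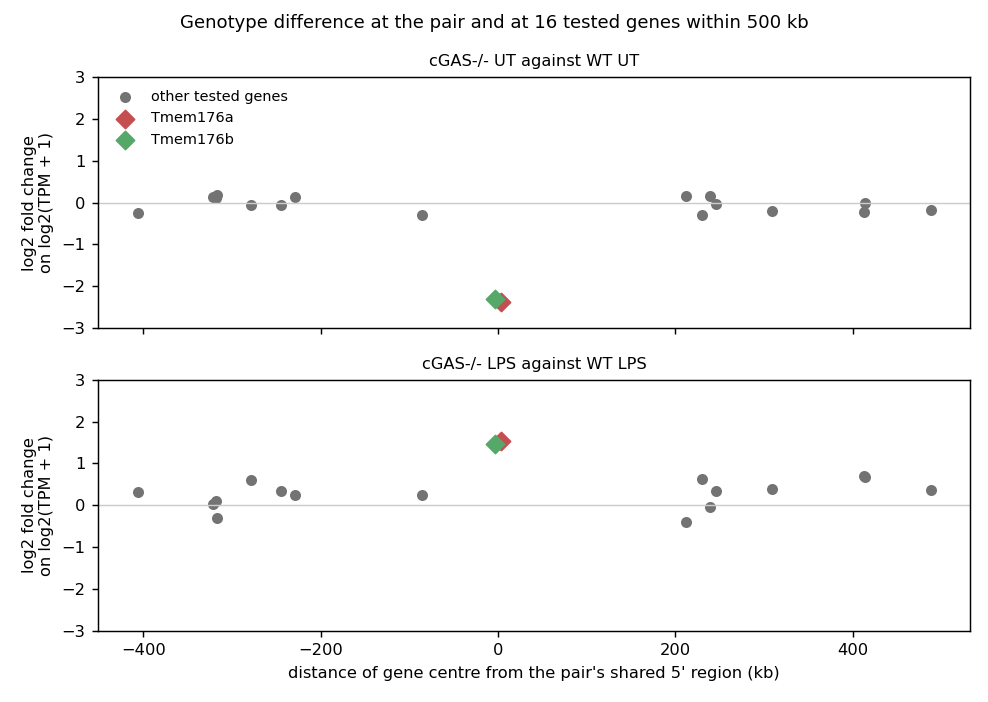
Log2 difference between cGAS-/- and WT on the log2(TPM + 1) scale in UT (top) and LPS macrophages (bottom), against the distance of each gene's centre from the interval between the pair in kb, for Tmem176a and Tmem176b (diamonds) and 16 tested genes within 500 kb (circles). In UT cells the 16 lie between -0.31 and 0.19, and the pair at -2.37 and -2.32.

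Genes elsewhere in the genome had a pattern like that of the pair. Among 4339 genes with a mean of at least 5 TPM, the 5 whose log2 values followed the mean of the pair most closely over the 12 libraries were Tubg1 (Pearson r 0.939), Get4 (0.898), Igfbp7 (0.897), Tifab (0.888) and Ptgr1 (0.870). Their r was 0.801 to 0.899 over the 11 libraries without WT LPS replicate 3. Tubg1 encodes γ-tubulin, Get4 a factor that delivers tail-anchored membrane proteins, Igfbp7 a secreted binding protein of insulin-like growth factors, Tifab an inhibitor related to the TRAF adaptor TIFA, and Ptgr1 an enzyme that inactivates prostaglandins and leukotriene B4. None of the 5 lies on chromosome 6. Tifab, for example, was at 22.8 ± 2.25 TPM in WT UT, 10.6 ± 0.829 in cGAS-/- UT, 13.2 ± 8.03 in WT LPS and 24.2 ± 1.15 in cGAS-/- LPS (SD, n = 3 each). Igfbp7 was at 10.6 ± 1.23, 2.11 ± 0.621, 5.77 ± 5.00 and 7.37 ± 1.02 TPM in the same order (SD, n = 3 each), and was listed at 0 in 1 WT LPS library. None of the 5 passed the adjusted p (limma, all 12 libraries) between genotypes in UT or LPS cells. They were picked for likeness to the pair, with r taken over libraries that differ in group and total.

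The genes listed for the inflammasome, a protein complex that TMEM176B is known to restrain, went both ways between the genotypes with LPS. The list also holds cytokine genes, and RNA levels do not give the activity of the complex. Of 19 genes listed, 15 were in the table and tested. In UT cells 0 differed between genotypes (limma, adjusted p), and with LPS 2 were higher and 1 was lower in cGAS-/- cells, beside 1.83% and 2.36% of all genes tested, with a list median of 0.12 beside 0.20 over all genes. Il1b, the gene of the cytokine that the inflammasome matures, was at 110 ± 57.4 TPM in WT LPS and 847 ± 72.5 in cGAS-/- LPS (SD, n = 3 each), a log2 difference of 3.11 (limma adjusted p = 0.00907). Il1a, which encodes the related cytokine IL-1α, was higher by 1.99 (limma adjusted p = 0.00508). Il1rn, the gene of the receptor antagonist that blocks both cytokines, was lower by 2.15 in cGAS-/- LPS than in WT LPS (limma adjusted p = 0.0168). For IL-1β RNA, PCR in the study gave the other direction, with a higher level in LPS-activated WT than in cGAS-/- macrophages. The reason for this difference was not tested.

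Nlrp3 itself, the sensor of the complex, was at 11.8 ± 2.78 TPM in WT LPS and 24.1 ± 1.65 in cGAS-/- LPS (SD, n = 3 each) and did not pass the adjusted p between genotypes. It was higher in cGAS-/- cells by 1.03 in UT and by 0.80 with LPS in the fit without WT LPS replicate 3 (limma adjusted p = 0.00242 and 0.0137). In that fit 5 listed genes were lower in cGAS-/- LPS cells, beside 3 higher, and 8.28% of all genes tested passed. The 5 were Pycard (-1.09), Casp1 (-0.57), Casp4 (-1.06), Il18 (-1.10) and Il1rn (-1.71). Nlrp3 rose with LPS by 1.41 in WT and 1.38 in cGAS-/- cells (limma adjusted p = 0.00150 and 0.00227). In all, 5 inflammasome genes rose and 4 fell with LPS in WT cells, and 5 rose and 1 fell in cGAS-/- cells. Of all genes tested, 4.31% rose and 23.3% fell in WT cells, and 4.76% rose and 9.06% fell in cGAS-/- cells. Without WT LPS replicate 3, 1 was higher and 2 were lower in cGAS-/- UT cells, 3 were higher and 5 lower in cGAS-/- LPS cells, 8 rose and 4 fell in the WT response, and 7 rose and 2 fell in the cGAS-/- response. In that fit 5.33%, 8.28%, 34.7% and 30.8% of all genes tested passed in these 4 comparisons. With median-ratio scaling 1 was higher and 1 lower in UT cells, 2 were higher and 2 lower in LPS cells, 8 rose and 3 fell in WT, and 7 rose and 2 fell in cGAS-/- cells, beside 1.82%, 4.25%, 19.9% and 13.9%.

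Other ion channels and transporters of endosomes and lysosomes mostly fell with LPS where they passed the test. Of 20 genes listed, 17 were tested, and 0 differed between the genotypes in UT or in LPS cells (limma, adjusted p), beside 1.83% and 2.36% of all genes tested. With LPS, 11 of 17 fell in WT cells and 6 of 17 in cGAS-/- cells, and 0 rose in either, beside 23.3% and 9.06% of all genes tested that fell. The list medians were -0.95 and -0.67, beside -0.46 and -0.20 over all genes. The largest fall in the list was that of Atp6v0d2, a subunit of the lysosomal proton pump, which was at 145 ± 5.01 TPM in WT UT and 2.91 ± 1.88 in WT LPS, and at 78.8 ± 5.84 in cGAS-/- UT and 0.934 ± 0.0857 in cGAS-/- LPS (SD, n = 3 each). Tpcn1, a cation channel of endosomes and lysosomes, fell by 2.76 on the log2 scale in WT and by 1.30 in cGAS-/- cells (limma adjusted p = 8.25e-06 and 0.00147). Its responses differed between genotypes by 1.46 in the interaction term (limma adjusted p = 0.0488), which 0.9% of all genes tested passed, but by 1.02 and 1.15 with median-ratio and quantile scaling, which did not pass (adjusted p = 0.318 and 0.133). Without WT LPS replicate 3, 5 were lower in cGAS-/- UT cells, 1 was higher and 2 were lower in cGAS-/- LPS cells, 13 fell in the WT response, and 9 fell and 1 rose in the cGAS-/- response, beside the same 5.33%, 8.28%, 34.7% and 30.8% of all genes tested. That 1 was P2rx4, an ATP-gated cation channel, which rose by 0.74 (limma adjusted p = 0.0335), beside 1.5 and 1.25 for the pair. With median-ratio scaling 7 fell and 1 rose in WT cells, and 5 fell and 2 rose in cGAS-/- cells, beside 19.9% and 13.9% of all genes tested that passed in either direction. Between genotypes in LPS cells, 1 was then lower in cGAS-/-, beside 4.25% of all genes tested. With quantile scaling 1 was higher and 1 lower there, beside 4.64%.

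Markers of the other cells in which Tmem176a and Tmem176b are known were followed beside the pair. In bulk samples, fewer cells of a type and less RNA per cell cannot be told apart. The summed level of 18 dendritic cell markers was 13.7 to 16.9 TPM in WT UT, 8.60 to 12.7 in cGAS-/- UT, 2.79 to 4.02 in WT LPS and 6.49 to 6.86 in cGAS-/- LPS. It was thus lower in cGAS-/- than WT in UT cells and higher with LPS, as the pair was. Of the sum in cGAS-/- LPS, 2.84 to 3.16 TPM was Fscn1, the actin-bundling protein fascin. Without Fscn1 the sums with LPS were 2.73 to 3.57 TPM in WT and 3.44 to 4.01 in cGAS-/-, which overlapped.

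Levels differed among these markers. Flt3, the receptor of the growth factor of dendritic cells, reached at most 0.0625 TPM, the transcription factor Zbtb46 at most 0.236, and the lectin Cd209a at most 0.0413, with 0 in 11 of 12 libraries. The most abundant marker was Itgax (CD11c), at up to 7.07 TPM, which macrophages also express. Others above 1 TPM were Cd207, at up to 4.74 TPM, Fscn1, at up to 3.16, Clec10a, at up to 2.16, Xcr1, at up to 2.14, Batf3, at up to 1.23, Ccl22, at up to 1.18, and Ccl17, at up to 1.05. Of the 18 markers, 7 were tested. In UT cells 1 was lower in cGAS-/- (Clec10a, -1.0, limma adjusted p = 0.00769), and with LPS 1 was higher (Fscn1, 1.62, limma adjusted p = 6.30e-04), beside 1.83% and 2.36% of all genes tested. In the LPS response 1 rose and 4 fell in WT, beside 4.31% and 23.3% of all genes tested, and 2 rose and 2 fell in cGAS-/- cells, beside 4.76% and 9.06%. These response counts were the same without WT LPS replicate 3, when 34.7% and 30.8% of all genes tested passed. In cGAS-/- cells 1 rose and 2 fell with median-ratio or quantile scaling, beside 13.9% and 15.1% of all genes tested, and in WT cells 1 rose and 3 fell with quantile scaling, beside 20.6%. The part of such cells in the levels of the pair was not tested.

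Markers of T, NK and innate lymphoid cells were mostly low. Cd3e, a chain of the T cell receptor complex, was at most 0.136 TPM. Trbc2, a constant region of the T cell receptor, reached 1.57 TPM in WT LPS but did not pass the filter. Il23r, a chain of the IL-23 receptor, was the only marker of this list that passed the filter. It rose with LPS by 2.84 in WT and 3.05 in cGAS-/- cells (limma adjusted p = 1.48e-04 and 9.45e-05) and did not pass between genotypes.

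The summed markers of B cells and neutrophils were lower in every cGAS-/- UT library than in any WT UT library. The B cell sum was 109 to 136 TPM in WT UT and 20.4 to 29.1 in cGAS-/- UT, and 28.9 to 45.4 in WT LPS and 3.27 to 9.14 in cGAS-/- LPS. Unlike the pair, it was lower in cGAS-/- with LPS as well, with Igkc, the immunoglobulin κ constant region, at log2 differences of -3.52 in UT and -2.92 in LPS cells (limma adjusted p = 0.00101 and 0.00508). It was the only 1 of 4 tested B cell markers past the adjusted p in each. The neutrophil sum was 173 to 244 TPM in WT UT, 85.8 to 157 in cGAS-/- UT, 92.0 to 403 in WT LPS and 98.2 to 125 in cGAS-/- LPS. Of 8 tested neutrophil markers, 3 were lower in cGAS-/- UT, the granule genes Ngp (-3.34), Ltf (-0.95) and Elane (-0.89), and 0 differed with LPS. Elane did not pass with median-ratio or quantile scaling (adjusted p = 0.0539 and 0.0648), nor Ltf with quantile scaling (adjusted p = 0.0897), which left 2 and 1 of the 3, beside 1.82% and 1.89% of all genes tested. Beside these counts, 1.58% of all genes tested were lower in cGAS-/- UT cells and 2.36% differed with LPS. Of 12 macrophage markers, Mrc1 was lower in cGAS-/- in UT (-1.68) and LPS cells (-1.99), Lyz2 was higher with LPS (0.80), and the others did not pass. With median-ratio scaling 0 of the 12 passed in UT cells (Mrc1 adjusted p = 0.145), and 0 were higher and 5 lower with LPS, beside 1.82% and 4.25% of all genes tested. With quantile scaling 0 were higher and 2 lower with LPS, beside 4.64%, so that Lyz2 did not pass under either (0.27 and 0.31, adjusted p = 0.754 and 0.271). In the fit without WT LPS replicate 3, 2 macrophage markers were higher and 2 lower in cGAS-/- UT cells, and 1 was higher and 8 were lower in cGAS-/- LPS cells. The counts for UT and LPS cells were then 0 higher with 2 and 3 lower among the 4 B cell markers, 0 higher with 3 and 1 lower among the 8 neutrophil markers, and as before among the dendritic cell markers and for Il23r. In that fit 5.33% and 8.28% of all genes tested passed in UT and LPS cells. The part of these cells in the difference of the pair in UT macrophages was not tested.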

How the data were processed

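Per the labels and the methods of the study, strand-specific mRNA libraries were sequenced in pairs, trimmed with fastp, mapped to GRCm39 with STAR and quantified with kallisto, and the authors compared groups with edgeR and limma. The annotation release is not given in the sources used here. The deposited values were read as TPM, each the mean over a symbol's transcripts. Read counts were not analysed here, and intervals for counting error could not be computed.

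Samples were grouped by their labels. A gene was tested if it reached 1 TPM in 3 or more of the 12 libraries, with library totals made equal to the TPM scale for this step alone, which left 11887 of 38739. Values were taken as log2(TPM + 1). Group means over all 12 libraries were fitted in limma 3.58.1 (R 4.3.3), with variances moderated along a trend, and p-values were adjusted by Benjamini-Hochberg over all genes tested. A gene was called at an adjusted p under 0.05, with counts also given for a log2 fold change beyond 2, as in the methods of the study. The fit was tested on simulated data. Tmem176a and Tmem176b were tested only in the LPS comparison of genotypes, since the UT samples chose them. The ratio of the pair was tested by an exact permutation test in SciPy 1.17.1. The members and the gene lists, written from general knowledge, were chosen with earlier results of these data known. Genes named are the pair, Cgas, tested genes within 500 kb, the 5 genes most like the pair and, in each list, those past the adjusted p (up to 4 in each comparison) with the most abundant marker. Other genes named were chosen after their values were seen. They are Nlrp3 between genotypes, Pycard, Casp1, Casp4, Il18, Flt3, Zbtb46, Cd209a, other dendritic cell markers above 1 TPM, Cd3e, Trbc2, P2rx4 and Gimap9. One listed gene and a list tied to it are not reported here. Promoter sequences are from RefSeq (GRCm38.p6) and the interval from the GRCm39 genome. The alternatives tried were a pseudocount of 0.1 or 5, dropping the filter or raising it to 5, scaling by median ratio, quantiles or a common total, fitting the 6 compared libraries by themselves, blocking on replicate number, removing the trend, weighting samples and leaving out each library. For gene lists and neighbours, the fit without WT LPS replicate 3 and the scalings were added after the data were seen.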

Additional observations from a re-analysis of the deposited data

Results flagged for a closer look

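The responses of Tmem176a and Tmem176b to LPS went in opposite directions in the genotypes, with every WT library lower with LPS and every cGAS-/- library higher. The log2 responses differed by 3.9 for Tmem176a and by 3.77 for Tmem176b. This difference was not tested, because the UT samples in it chose the pair.

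Among the listed genes, 3 had an LPS response that differed between genotypes in the interaction term of limma. Il1a rose by 4.97 in WT and by 7.02 in cGAS-/- cells, a difference of 2.05 (SE 0.40, adjusted p = 0.0438), which became 2.21 with a common total and did not pass (adjusted p = 0.0977). Tpcn1 fell by 2.76 in WT and by 1.30 in cGAS-/- cells, a difference of 1.46 (SE 0.29, adjusted p = 0.0488), which became 1.02 and 1.15 with median-ratio and quantile scaling and did not pass (adjusted p = 0.318 and 0.133). Fscn1 was at -0.21 in WT, which did not pass, and rose by 1.83 in cGAS-/- cells, a difference of 2.04 (SE 0.24, adjusted p = 0.00251). Over all genes tested, 0.9% passed in this term. Without WT LPS replicate 3, when 4.56% of all genes tested passed, those passing were 3 inflammasome genes, 2 endolysosomal channels, 2 dendritic cell markers, 1 neutrophil marker and 6 macrophage markers.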

How the results depend on the processing

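For the pair in LPS cells, the difference between genotypes kept its direction under each alternative and missed an adjusted p of 0.05 under each that kept all WT LPS libraries. With 1 library left out it ran from 0.78 to 2.0 for Tmem176a (adjusted p 0.0163 to 0.365) and from 0.82 to 1.89 for Tmem176b (0.00758 to 0.332). With the replicate block it was 1.53 and 1.46 (adjusted p 0.162 and 0.140). Same-numbered libraries had correlations of deviations between -0.03 and 0.04, so the numbers did not pair them, and with the block 179 genes passed the adjusted p with LPS against 281 without it, of which 64 and 73 were also beyond a log2 fold change of 2. Scaling moved the split of higher and lower calls past both thresholds from 33 and 40 to 23 and 67 with LPS between genotypes, from 170 and 344 to 310 and 135 in the WT response, and from 231 and 185 to 264 and 131 in the cGAS-/- response (median ratio).

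With pseudocounts of 0.1 and 5, log2 values for Tmem176a were -2.73 and -1.56 in UT cells, 1.79 and 0.89 in the cGAS-/- response and 4.94 and 2.38 for the difference of responses. Those for Tmem176b were -2.56 and -1.67, 1.43 and 0.81, and 4.39 and 2.52, and -1.71 with a pseudocount of 5 in the WT response. Median-ratio scaling gave -2.29 in UT cells for Tmem176a, and 1.68 and 1.46 in the cGAS-/- response, quantile scaling 1.69 and 1.44 there, a common total -2.46 in UT cells for Tmem176a, and sample weights 3.16 for the difference in Tmem176b. With 1 library left out, ranges for Tmem176a were -2.40 to -2.33 in UT cells, -2.87 to -1.65 in the WT response, 1.41 to 1.63 in the cGAS-/- response and 3.15 to 4.37 for the difference. For Tmem176b they were -2.37 to -2.25, -2.95 to -1.88, 1.19 to 1.30 and 3.13 to 4.20. The difference in the log2 ratio of the pair between cGAS-/- and WT LPS cells reversed to -0.038 with a pseudocount of 5, and ran from -0.039 to 0.16 with 1 library left out, reversing to -0.0055 without cGAS-/- LPS replicate 2 and to -0.039 without WT LPS replicate 3. Its cause was not tested.

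Genes called past both thresholds numbered 44 in UT cells (75 and 18 with pseudocounts of 0.1 and 5), 73 with LPS (117 and 35, 48 with no filter, 5 from the 6 samples alone, and 37 to 214 with 1 library left out), 514 in the WT response (1415 and 173, and 443 to 825), 416 in the cGAS-/- response (776 and 179) and 48 for the difference (31 and 24, and 29 to 212).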
